A study of Mus musculus with 9 samples.

Results

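Core Sox9 Col2a1 cells are mesenchymal cells of the mouse forelimb bud that carried transcripts of the chondrogenic transcription factor gene Sox9 and of the cartilage collagen gene Col2a1, and none of 5 genes that stand for other positions in the bud. A barcode was a member when it had more than 2500 genes, fewer than 200000 unique molecular identifiers (UMIs, each standing for a captured transcript molecule) and less than 10% mitochondrial UMIs. It also needed at least 3 UMIs of the limb mesenchyme gene Prrx1 and none of the muscle gene Lbx1, the ectoderm gene Epcam, the endothelial gene Cdh5 and the myeloid gene Tyrobp. Its last clauses were at least 5 Sox9 UMIs per 10000 UMIs of the cell, at least 2 Col2a1 UMIs, and no UMI of Creb5, Emx2, Pax1, Shh or Hoxa13. Of 133086 barcodes in 9 libraries, 52432 passed the filters on genes, UMIs and mitochondrial share, and 34671 of these met the clauses on Prrx1 and the lineage genes and are called mesenchymal cells. Of the mesenchymal cells, 3948 met the clauses on Sox9 and Col2a1. Of these, 1974 cells, 5.69% of the mesenchymal cells, had no UMI of the 5 position genes and are the core cells.

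The study compared forelimb buds that form 5 digits with buds in which the expression of Grem1, the gene of the secreted BMP antagonist Gremlin1, is lowered by deletions of its enhancers. Pairs of forelimb buds at E10.75 (37 to 39 somites) were dissociated and sequenced as droplet libraries, 3 for wild-type (Wt) embryos, 3 for EC1CRM8Δ/Δ embryos and 3 for EC1CRM5Δ/Δ embryos. Both alleles lack the EC1 group of Grem1 enhancers, the first together with CRM8 and the second together with CRM5, and the homozygous embryos develop tetradactyl limbs. They are written E1C8Δ/Δ and E1C5Δ/Δ below, and values for 3 libraries of a genotype are given in the order of replicates 1, 2 and 3. The deletions are carried by every cell of the embryo, so that a difference in core cells is not restricted to a loss of the enhancers in those cells. All 3 genotypes were on a Swiss Albino background, and the sex of the embryos differed between libraries as given below.

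Limb cartilage forms from mesenchyme that condenses in the middle of the bud. SOX9 starts this program and, with its partners SOX5 and SOX6, switches on the collagens and proteoglycans of cartilage, of which type II collagen, the product of Col2a1, is among the first. BMP ligands drive the exit of mesenchymal progenitors into this program, and antagonists such as Gremlin1 restrain BMP activity in the posterior and distal mesenchyme. The position of a condensation along the limb is reflected in its homeobox genes, with MEIS and IRX factors high near the body wall and the 5′ HOX factors high further out.

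The core cells were taken from libraries of unequal size. Wt libraries gave 391, 469 and 74 core cells (934 in all), E1C8Δ/Δ libraries gave 13, 405 and 285 (703 in all) and E1C5Δ/Δ libraries gave 29, 57 and 251 (337 in all). E1C8Δ/Δ replicate 1, with its 13 core cells, was left out of the tests of expression, which needed 20 core cells in a library, and its values are printed with the others. In the 8 libraries of the tests the median core cell held 15494 to 44871 UMIs, and the core cells of a library summed to between 1230437 and 17414076 UMIs. Transcripts of Xist and of Y-linked genes gave the sex of each library's embryos: the 3 Wt libraries, E1C8Δ/Δ replicate 3 and E1C5Δ/Δ replicate 2 were male, and the other mutant libraries were female. Genotype and sex are therefore partly confounded, genes on X and Y were left out, and values in the male libraries are given for the shares of cells and for the main genes. No barcode was a member in more than 1 library, and the barcodes of 27 members passed the filters in another library as well. Doublet calls covered 0% to 10.76% of the core cells and 1.46% to 20.3% of the mesenchymal cells of a library, and cells so called were kept unless said otherwise.

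The thresholds of the rule cut through continuous distributions. The median core cell had 8.09 Sox9 UMIs per 10000, and the median of the other mesenchymal cells was 1.01. Just inside the Sox9 threshold, 392 members had 5 to under 6 per 10000, and just outside it 420 cells with 4 to under 5 met every other clause. For Col2a1, 510 members had exactly 2 UMIs, while 603 cells with 1 UMI and 703 with none met all the other clauses. Among the 3948 Sox9 Col2a1 cells, Emx2 was detected in 28.3%, Creb5 in 25.7%, Pax1 in 11.9%, Hoxa13 in 2.20% and Shh in 1.32%, and 525 of the 1974 cells with a position gene were outside the rule by a single UMI.

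The label of chondrogenic progenitors was checked against markers that did not define the gate. Levels below are CPM, the UMIs of a gene per 1000000 UMIs of the summed cells of a library, and the comparison is with the other mesenchymal cells of the same library. Since the rule chose the cells on this contrast, the ratios are a description with no test. Sox5, the gene of the SOX9 partner SOX5, was higher in core cells in 9 of 9 libraries, with a median log2 ratio of 1.17 and a range of 0.71 to 1.57. Tbx18, a T-box gene of the limb mesenchyme, was higher in 9 of 9 libraries with a median log2 ratio of 1.27. Both remaining markers of the label, Sox9 and Col2a1, were part of the rule and had median ratios of 2.13 and 1.73.

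Detection in single cells followed the same pattern. Sox5 UMIs were found in 82.4% of core cells, in 57.6% of the other mesenchymal cells and in 4.21% of 2116 erythroid cells, which should lack it, and Tbx18 in 88.9%, 64.3% and 7.70%. The median library depths of these sets overlapped, at 15494 to 44871 UMIs for core cells, 17208.5 to 48041 for the other mesenchyme and 17983 to 39311.5 for the erythroid cells. Sox6 was found in 34.1% of core cells and 21.5% of the other mesenchymal cells, against 1.23% of erythroid cells. Markers of mature cartilage were nearly absent: a UMI of Acan, the gene of the proteoglycan aggrecan, was present in 1 core cell, and one of Matn1, the gene of matrilin 1, in 2. Transcripts of Sox5 were thus widespread in these cells and those of Sox6 less so, while those of Acan and Matn1 were at or near 0.

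Many transcription factor genes of the inner limb mesenchyme were higher in core cells than in the other mesenchymal cells. Several of them differed little between core cells and Sox9 Col2a1 cells with a position gene, as given below. Of the 5598 genes outside the rule with a level of at least 20 CPM in core cells or other mesenchymal cells of every library, 912 (16.3%) were higher in core cells in all 9 libraries and 926 (16.5%) were lower in all 9. The list of core mesenchyme genes had 16 of its 20 genes higher in all 9 libraries and none lower in all 9, whatever their level. Of the 11718 genes that passed the filter on low counts, 1476 were higher in all 9 and 1210 lower. The median log2 ratio of the list was 1.31, against 0.05 over all genes tested. Its members were chosen with earlier results of these data known, so these counts are no independent evidence. Osr2, a zinc-finger transcription factor gene of the odd-skipped family, had a median log2 ratio of 1.77 with a range of 1.33 to 2.10, and was found in 51.6% of core cells, 22.7% of other mesenchymal cells and 3.02% of erythroid cells. Foxc1, a forkhead gene, had a ratio of 1.79, the growth factor gene Fgf9 1.77, Tbx4 1.60, Tbx15 1.35 and Shox2, a homeobox gene required for the upper limb bone, 1.27.

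Among the 912 genes at that level that were higher in all 9 libraries, the largest ratios belonged to Fam181b (1.99), Osr2, the RNA-binding protein gene Celf2 (1.64), Tcf7l2, which encodes a transcription factor of the WNT pathway (1.45), the heparan sulfate enzyme gene Hs3st3b1 (1.37), the semaphorin gene Sema6a (1.37), the chemokine gene Cxcl12 (1.37), Tbx15, the microtubule gene Dcx (1.29) and the SLIT receptor gene Robo2 (1.29). At the other end, the progenitor genes Msx1 and Msx2, which encode homeobox factors downstream of BMP signals, had median log2 ratios of -2.87 and -2.50, Zfp503 -2.16, Zic5 -1.89, the LIM homeobox gene Lhx2 -1.72 and the antisense gene Hoxa11os -1.68. Of the 8 genes of the anterior and posterior margin 7 were lower in core cells in all 9 libraries. Of the 11718 genes that passed the filter on low counts, 1210 were. The rule removed cells with the anterior gene Pax1 or the posterior gene Shh, and the part of these clauses was not tested.

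Cartilage matrix genes split into an expressed and a silent group. Col9a1, which encodes a chain of type IX collagen, was higher in core cells in 9 of 9 libraries, with a median log2 ratio of 1.21 and detection in 85.6% of core cells. Col9a2 had a ratio of 1.75, Col9a3 1.58 and Col11a1 0.58, again higher in 9 of 9 libraries. Cnmd, the gene of chondromodulin, was found in 5.02% of core cells and 0.388% of other mesenchymal cells. Of the 18 genes of this list 9 passed the filter on low counts, and 4 of those, the collagen genes just named, were higher in all 9 libraries.

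Globin transcripts were lower in core cells than in the other mesenchyme. Hba-x, Hbb-y, Hba-a1 and Hbb-bh1, genes of embryonic and early globins, had median log2 ratios of -2.70, -2.52, -2.20 and -1.70. The summed level of 9 erythroid markers was 402 to 3049 CPM in the core cells of Wt libraries, 301 to 2655 in those of E1C8Δ/Δ and 377 to 1677 in those of E1C5Δ/Δ. In the other mesenchymal cells it was 2846 to 9520, 5415 to 14818 and 1065 to 4233, and its part in the ratios was not tested. Marker sums of other lineages were at most 20.3 CPM in core cells, the highest being that of the 8 ectoderm markers in an E1C8Δ/Δ library, and the gated lineage genes were at 0 by the rule.

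**Figure D1:**
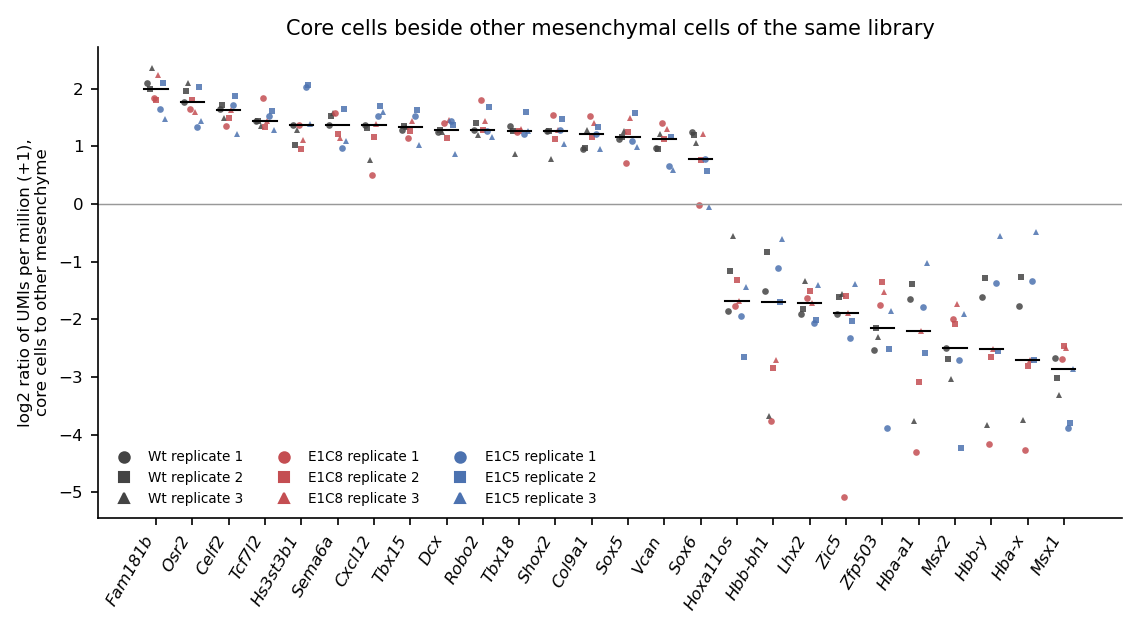
Log2 ratio of the level (CPM plus 1) in core cells to that in the other mesenchymal cells of the same library, with 1 point for each of the 9 libraries and a black bar at the median of each gene. Osr2, Tbx18, Col9a1 and Sox5 lie above 0 in all 9 libraries, Sox6 in 7 of 9, and Msx1, Msx2 and the globin genes lie below 0 in all 9.

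Core cells had lower levels of proximal genes than the Sox9 Col2a1 cells that carried a position gene. This contrast is again set by the rule and is described for the 8 libraries with at least 20 core cells. No share over all genes is at hand for it, so the counts of list genes are a description only. Of the 13 proximal genes 12 were lower in core cells in 8 of 8 libraries, among them Irx5 with a median log2 ratio of -2.90, Irx3 -2.60, Gria2 -2.48, Rarb -2.25, Hoxc4 -2.02, Gsc -1.81 and Meis2 -1.19. Of the 14 zeugopod and distal genes 7 were higher in 8 of 8, with Hoxa11 at 1.28 and Hoxd11 and Hoxd10 both at 1.21. Hoxd13 (-0.48), Tfap2b (-0.77) and Hey1 (-0.48) were lower in 7 of 8. Beside all the other mesenchymal cells, in contrast, 0 of the 14 were higher in all 9 libraries and 5 were lower in all 9. The median log2 ratio of this list was then -0.68. Of the 20 core mesenchyme genes 9 were higher in 8 of 8, with Osr2 at 1.58, Fgf9 at 1.43, Mab21l2 at 1.19 and Shox2 at 0.84, and Barx2 was lower in 8 of 8. Foxc1 had a median of -0.03 in this contrast and was higher in 3 of 8 libraries and lower in 5. Tbx15 was at 0.30 and Tbx18 at 0.46. The chondrogenic genes did not share a direction: Sox5 had a ratio of -0.13 and was lower in 6 of 8 libraries, Sox6 one of -0.44 and Col9a1 one of -0.33, both lower in 8 of 8, and Col9a2 one of 0.33, higher in 6 of 8.

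Within the core cells, Sox5, Sox6 and several collagen genes were higher in cells with more Sox9. Cells were divided at 7 and 10 Sox9 UMIs per 10000 into 709, 704 and 561 cells, and the top and bottom bins were compared, as a description, in the 6 libraries with at least 20 cells in each bin. Sox6 was higher in the top bin in 6 of 6 libraries with a median log2 ratio of 1.06, its median level going from 15.0 through 25.2 to 30.7 CPM. Sox5 had a ratio of 0.75, with medians of 85.7, 117 and 140, and Col2a1 one of 0.73, with medians of 143, 194 and 251. The relation of Col2a1 to Sox9 is shaped by the rule, which sets a floor on both and raises the lowest possible Col2a1 level in shallow cells. Col9a2, Wwp2, which encodes a ubiquitin ligase, the transcription factor gene Maf and the semaphorin gene Sema3d were also higher in 6 of 6, with ratios of 1.11, 0.94, 1.42 and 1.42. The other cartilage matrix genes were mixed. Col9a1 (0.47) and Col11a1 (0.51) were higher in 6 of 6, and Cnmd (1.90) was higher in 5 and lower in 0. Hapln1 (-0.58) and Col27a1 (-0.13) were lower in 4 of 6, and Col9a3 (0.91) was higher in 4 of 6.

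Genes of the core mesenchyme had smaller ratios along this axis than Sox6, with the exceptions of Maf and Sema3d. Fgf9 had a ratio of 0.80, Tbx18 0.56, Tbx15 0.53 and Shox2 0.33, each higher in 6 of 6 libraries, whereas Osr2 was higher in 4 of 6 with a median of 0.38. Lower in the top bin in 6 of 6 libraries were Lhx2 (-0.77), Hoxd11 (-0.67), the zinc-finger gene Sall3 (-0.59) and Tbx3 (-0.58), together with the replication genes Mcm3 (-0.25) and Pcna (-0.21). The median UMI counts of the cells in the 3 bins ranged over 17161 to 46356, 16624.5 to 45825 and 13726 to 41888. The share of core cells in the top bin was 36.6%, 29.4% and 28.4% in Wt libraries, 23.1%, 35.6% and 21.4% in E1C8Δ/Δ and 3.45%, 12.3% and 17.1% in E1C5Δ/Δ, so that the 3 E1C5Δ/Δ libraries lay below all others.

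**Figure D2:**
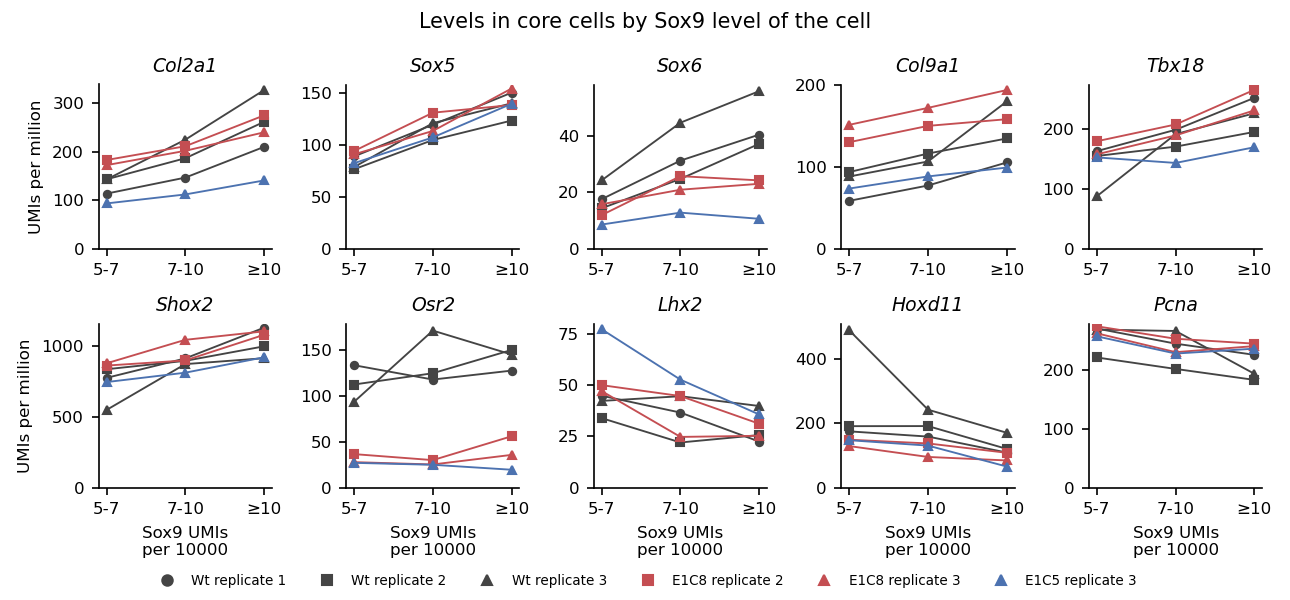
Level in CPM (vertical axis, from 0) of 10 genes in core cells grouped by their own Sox9 level in UMIs per 10000 (horizontal axis), with 1 line for each of the 6 libraries that had at least 20 cells in each group. Sox5, Col2a1, Col9a1 and Tbx18 are higher in the top than in the bottom group in all 6 libraries and Lhx2, Hoxd11 and Pcna lower in all 6, while the mutant lines of Osr2 stay under the Wt lines in each group.

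Whether the tetradactyl buds held fewer core cells was asked of the share of core cells in each library. Core cells made up 9.52%, 8.26% and 12.5% of the mesenchymal cells in Wt libraries, 3.16%, 6.17% and 4.70% in E1C8Δ/Δ and 1.03%, 3.51% and 3.68% in E1C5Δ/Δ. All 6 mutant libraries lay below the lowest Wt library. The means were 10.1% ± 2.19 (SD, n = 3) for Wt, 4.68% ± 1.51 (n = 3) for E1C8Δ/Δ and 2.74% ± 1.49 (n = 3) for E1C5Δ/Δ. The difference of the mutants from Wt was -6.39 percentage points, with a two-sided exact permutation p of 0.0119, the smallest that the 84 splits of 3 and 6 libraries allow. Adjusted over the 9 tests of shares this p was 0.0536 and missed the threshold of 0.05. For each allele alone the exact permutation p was 0.1 (adjusted 0.112), the smallest that 3 libraries against 3 can give.

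In the male libraries alone, the mutant shares of 4.70% and 3.51% were also below the 3 Wt shares. The male mutant shares of Sox9 Col2a1 cells, 8.71% and 6.03%, were below the Wt shares of 15.4%, 15.2% and 18.3% as well. The smallest library, E1C8Δ/Δ replicate 1, had an exact binomial 95% interval of 1.69% to 5.35% around its 3.16%, which covers counting error only and lay below the interval of every Wt library, the lowest of which began at 7.56%. Since the clauses count UMIs, depth enters the share: the median core cell held 28732 to 44871 UMIs in Wt, 15494 to 24382 in E1C8Δ/Δ and 25129 to 40182 in E1C5Δ/Δ. With every cell thinned to 10000 UMIs, which left out 4 core cells of Wt, 68 of E1C8Δ/Δ and 7 of E1C5Δ/Δ with fewer, the shares were 5.84%, 6.36% and 8.998% in Wt, 3.35%, 4.70% and 3.47% in E1C8Δ/Δ and 0.689%, 2.03% and 2.19% in E1C5Δ/Δ, a difference of -4.33 percentage points (exact permutation p = 0.0119, adjusted 0.0714).

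The share was also split into its parts. Sox9 Col2a1 cells of any position made up 16.3% ± 1.72 of mesenchymal cells in Wt, 10.1% ± 1.68 in E1C8Δ/Δ and 7.23% ± 3.56 in E1C5Δ/Δ (SD, n = 3 each). All 6 mutant libraries lay below all Wt libraries, with a difference of -7.61 percentage points (exact permutation p = 0.0119, adjusted 0.0536). With cells thinned to 10000 UMIs this difference was -4.50 points (exact permutation p = 0.0238, adjusted 0.0714). E1C8Δ/Δ replicate 2 was then at 8.17%, close to the lowest Wt library at 8.21%. Among the Sox9 Col2a1 cells, core cells were 61.9%, 54.3% and 68.5% in Wt, 32.5%, 51.5% and 54.0% in E1C8Δ/Δ and 23.2%, 58.2% and 32.8% in E1C5Δ/Δ. Here 5 of 6 mutant libraries lay below all Wt libraries, E1C5Δ/Δ replicate 2 lay inside the Wt range, and the difference of -19.5 points had an exact permutation p of 0.0357 (adjusted 0.107). Of the position genes, Emx2, a proximal homeobox gene, differed most: it was found in 16.6%, 22.9% and 4.63% of the Sox9 Col2a1 cells in Wt, in 37.5%, 26.2% and 19.1% in E1C8Δ/Δ and in 58.4%, 30.6% and 50.3% in E1C5Δ/Δ. With cells thinned to 10000 UMIs the Emx2 shares were 8.47%, 14.2% and 0.935% in Wt, 29.7%, 20.0% and 14.3% in E1C8Δ/Δ and 40.0%, 20.8% and 32.2% in E1C5Δ/Δ.

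**Figure D3:**
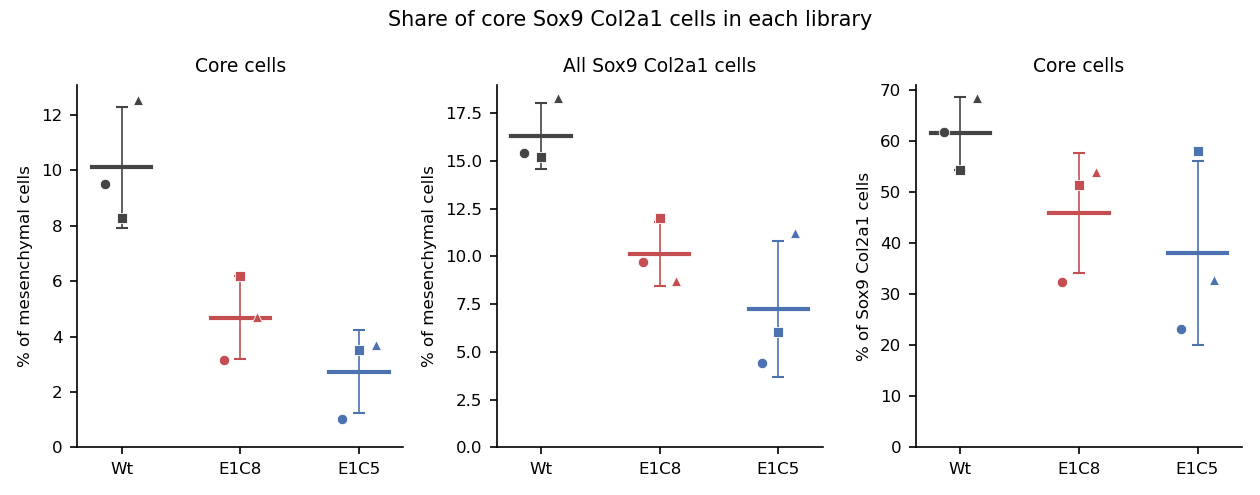
Share of core cells among mesenchymal cells (left), of Sox9 Col2a1 cells of any position among mesenchymal cells (middle) and of core cells among Sox9 Col2a1 cells (right), in percent, with 1 point per library (circle, replicate 1, square, replicate 2, triangle, replicate 3), a bar at the mean and whiskers of 1 SD. In the left and middle panels the 6 mutant libraries lie below the 3 Wt libraries, and in the right panel E1C5Δ/Δ replicate 2 lies within the Wt range.

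The question for expression was which genes differed between genotypes in cells that pass the same gate. UMIs of core cells were summed per library and fitted with edgeR's quasi-likelihood test, and 111 of 11718 genes (0.947%) had a Benjamini-Hochberg adjusted p under 0.05 for the mean of both mutants against Wt, 33 higher (0.282%) and 78 lower (0.666%). For E1C8Δ/Δ alone 149 genes were called (1.27%), 66 higher (0.563%) and 83 lower (0.708%), for E1C5Δ/Δ alone 127 (1.08%), 38 higher (0.324%) and 89 lower (0.76%), and 20 genes were called in both. Across 19 lists of 231 genes with roles in the limb and in cartilage, 199 genes could be tested and 25 were called. In the fitted libraries 10 of these 25 were higher in every mutant than in every Wt library, as were 2.55% of all genes tested, and 9 were lower in every mutant, as were 2.57%. The 25 were called on these same libraries, so nothing is read from that separation. All 19 lists were chosen with earlier results of these data known. Their counts beside the shares over all genes are a description and no independent evidence.

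Embryo sex and single libraries bear on these calls. With sex as a covariate 5 genes were called in place of 111, namely Nrp2, Zeb2, Smoc1, Osr2 and Pkdcc, and in male embryos alone, 3 Wt and 2 mutant libraries, 6 were called, Nrp2, Zeb2 and Osr2 among them. The 25 list genes kept their sign in male embryos alone, whose libraries the fit already held, and 1 of them, Osr2, was called there. The log2 fold changes in male embryos alone were -0.86 for Sox6, -0.79 for Foxc1, -1.65 for Hhip, -0.47 for Tcf7l2, -0.70 for Cyp26b1, -1.53 for Nrp2 and -1.48 for Zeb2, and 1.40 for Gsc, 1.35 for Pkdcc and 1.26 for Irx3. E1C8Δ/Δ replicate 1, which was not fitted, lay beyond all Wt libraries for 13 of 14 higher and 44 of 48 lower genes with a Wt mean of at least 20 CPM, where 43% and 31.5% of all genes at that level did so. The number of called genes fell to 29 without E1C8Δ/Δ replicate 2, 33 without Wt replicate 2, 36 without E1C5Δ/Δ replicate 3 and 52 without either Wt replicate 3 or E1C8Δ/Δ replicate 3.

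The targeted gene Grem1 was low in core cells of all genotypes. It was at 11.9, 11.7 and 8.77 CPM in Wt, at 0, 4.86 and 3.05 in E1C8Δ/Δ and at 8.13, 5.17 and 20.4 in E1C5Δ/Δ, and was not called for the mutants together (log2 fold change -0.57 ± 0.27 SE, edgeR adjusted p = 0.46). The E1C8Δ/Δ libraries lay below all Wt libraries, whereas the E1C5Δ/Δ libraries spread on both sides of them. In the other mesenchymal cells, where Grem1 was at 42.2, 28.1 and 27.99 in Wt, 9.67, 11.7 and 13.5 in E1C8Δ/Δ and 17.4, 16.05 and 24.999 in E1C5Δ/Δ, it fell in the mutants by 1.04 on the log2 scale (edgeR adjusted p = 0.025), where 60 of 16464 genes (0.364%) fell, and all 6 mutant libraries lay below Wt.

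Of the SOX factors and their partners, 2 of 8 tested genes fell, where 0.666% of all genes did. None rose, where 0.282% did, and the median log2 fold change was -0.05. Sox6 (chromosome 7, 115470872 to 116038796, minus strand, GRCm38) was at 30.5, 24.0 and 40.6 CPM in Wt, 10.6, 20.7 and 18.9 in E1C8Δ/Δ and 9.75, 14.5 and 10.3 in E1C5Δ/Δ. All mutant libraries lay below all Wt libraries, and Sox6 fell by 1.04 on the log2 scale (SE 0.17, edgeR adjusted p = 0.01). Its fall was called in E1C5Δ/Δ alone, by 1.44 (edgeR adjusted p = 0.006), and not in E1C8Δ/Δ alone, at -0.64 (adjusted p = 0.13), and the alleles were not shown to differ (E1C8Δ/Δ less E1C5Δ/Δ 0.80, adjusted p = 0.10). The call was lost without E1C5Δ/Δ replicate 3.

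Sox5, in contrast, was at 121, 98.9 and 112 CPM in Wt, 76.5, 121 and 111 in E1C8Δ/Δ and 77.2, 115 and 98.6 in E1C5Δ/Δ, with overlapping groups and a log2 fold change of -0.04 ± 0.11. Sox9 was not called (-0.19 ± 0.09), nor was Col2a1 (-0.33 ± 0.13), and since both define the gate their levels within it are bounded by the rule. Wwp2 fell by 0.65 (edgeR adjusted p = 0.045), from 60.1, 82.4 and 91.8 in Wt to 36.9, 70.6 and 62.0 in E1C8Δ/Δ and 31.7, 44.5 and 34.3 in E1C5Δ/Δ, with E1C8Δ/Δ replicates 2 and 3 inside the Wt range, and stayed called only without Wt replicate 1 or E1C5Δ/Δ replicate 2, being lost without each of the other 6 libraries. Within groups of cells of like Sox9 level, Sox6 in the mutants lay apart from Wt in the top group, at 37.1 to 55.8 in Wt and 10.6 to 24.2 in the mutants, and overlapped with it in both lower groups, whereas Sox5 overlapped in all 3. Only libraries with at least 20 cells in a group entered. Of the mutants these were 2 E1C8Δ/Δ libraries in each group, and 2 E1C5Δ/Δ libraries in each lower group but 1 in the top group.

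Cartilage matrix genes had 1 of 9 tested members lower in the mutants together, where 0.666% of all genes were lower. None was higher, where 0.282% were, and the median log2 fold change was -0.34. In E1C5Δ/Δ alone 3 of 9 fell, Col9a2, Col27a1 and Cnmd, where 0.76% of all genes fell, and in E1C8Δ/Δ alone none was called. Cnmd, the gene called in the mutants together, was at 2.50, 2.35 and 7.01 CPM in Wt, 0, 3.19 and 2.44 in E1C8Δ/Δ and 0 in all 3 E1C5Δ/Δ libraries. Against a floor of 3 UMIs over the 12695394 UMIs of the E1C5Δ/Δ core cells, Cnmd was at least 16.7-fold lower in E1C5Δ/Δ than the Wt mean of 3.95. This floor covers counting error only and not the spread between libraries, and the Wt mean was raised by replicate 3. The call of Cnmd for both mutants together (edgeR adjusted p = 0.044) stood only when Wt replicate 1 was left out and was lost without each of the other 7 libraries. The median level of Cnmd went from 0.73 CPM in the bottom Sox9 group to 5.84 in the top group. E1C5Δ/Δ libraries had the lowest shares of top-group cells, whose part was not tested. In each group E1C5Δ/Δ was at 0, and the mutants together overlapped with Wt. Col9a1 was at 81.5, 112 and 119 in Wt, 156, 146 and 167 in E1C8Δ/Δ and 96.7, 105 and 82.0 in E1C5Δ/Δ, and Col11a1 at 47.2, 51.9 and 44.4, 76.5, 57.6 and 50.1, and 41.4, 32.6 and 42.5. Neither was called, and the E1C8Δ/Δ values of Col9a1 lay above all the others. None of the 9 tested genes of matrix synthesis and none of the 15 tested genes of condensation, adhesion and early matrix was called in the mutants together, with medians of -0.18 and -0.16. Of these genes Itgb8 fell in E1C5Δ/Δ alone, and Serpinh1 was higher in E1C8Δ/Δ than in E1C5Δ/Δ.

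The core mesenchyme list had 4 of 19 tested members lower, where 0.666% of all genes fell, and none higher, with a median log2 fold change of -0.45 against 0.00 over all genes tested. In E1C5Δ/Δ alone 6 of 19 fell, where 0.76% of all genes did, and in E1C8Δ/Δ alone 1 fell, where 0.708% of all genes did. Like the other lists, this one was chosen with earlier results of these data known, so its counts are a description only. Osr2 (chromosome 15, 35296098 to 35303305, plus strand) stood first. It was at 125, 126 and 138 CPM in Wt, 21.1, 40.3 and 28.4 in E1C8Δ/Δ and 43.9, 54.8 and 25.3 in E1C5Δ/Δ. The highest mutant library thus held less than the lowest Wt library by a wide margin, and Osr2 fell by 1.84 (SE 0.18, edgeR adjusted p = 0.00019). It was called in E1C8Δ/Δ and E1C5Δ/Δ alone (-1.93 and -1.74, edgeR adjusted p = 0.0012 and 0.0053), in male embryos alone (-1.69) and in 18 of 18 alternative fits. In each of the 3 groups of cells of like Sox9 level the mutant libraries with at least 20 cells lay below Wt as well, for example at 19.5 to 55.9 against 127 to 149.7 CPM in the top group.

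Foxc1, Fgf9 and Tbx4 also fell, and for Foxc1 and Fgf9 the fall was larger in E1C5Δ/Δ. Foxc1 was at 35.4, 31.5 and 30.1 CPM in Wt, 15.8, 27.1 and 23.5 in E1C8Δ/Δ and 11.4, 14.5 and 11.4 in E1C5Δ/Δ, and fell by 0.89 (edgeR adjusted p = 0.003), with the alleles differing by 1.03 (adjusted p = 0.011). Fgf9 was at 12.9, 16.5 and 11.1, then 5.28, 12.5 and 13.1, then 4.88, 5.17 and 2.10, and fell by 1.17 (edgeR adjusted p = 0.023), with the alleles differing by 2.05 (adjusted p = 0.011). Tbx4, a T-box gene known for the hindlimb, fell by 0.64 (edgeR adjusted p = 0.04) from 16.1 ± 1.09 in Wt to 13.5 ± 0.126 in E1C8Δ/Δ and 8.06 ± 0.272 in E1C5Δ/Δ (SD, n = 3, 2 and 3). In groups of cells of like Sox9 level the mutants lay apart from Wt in the top group for Foxc1, in the middle group for Tbx4 and in none for Fgf9. All 3 genes had median ratios above 0 from the bottom to the top group, 0.92 for Foxc1, 0.80 for Fgf9 and 0.73 for Tbx4, and the E1C5Δ/Δ libraries had the lowest shares of top-group cells, whose part in the falls was not tested. Foxc1 was called whichever library was left out. Fgf9 lost its call without Wt replicate 2, E1C8Δ/Δ replicate 2, E1C8Δ/Δ replicate 3 or E1C5Δ/Δ replicate 3, and Tbx4 kept its call only without E1C5Δ/Δ replicate 1. Tbx18 and Shox2 were not called, with log2 fold changes of -0.14 and 0.04, and their groups overlapped.

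**Figure D4:**
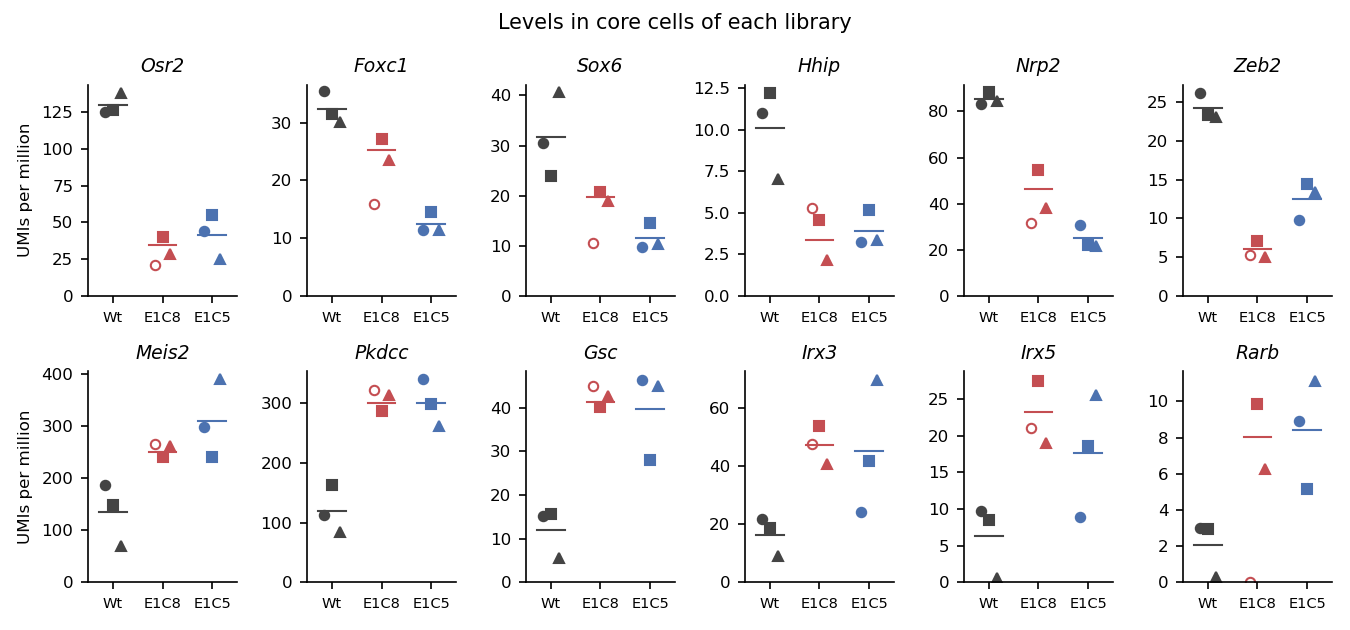
Level in CPM (vertical axes, from 0) of 12 genes in the core cells of each library (circle, replicate 1, square, replicate 2, triangle, replicate 3), with a bar at the mean of the fitted libraries of each genotype and E1C8Δ/Δ replicate 1, which was not fitted, as an open circle. The 6 genes of the upper row are lower in every mutant than in every Wt library, and of the lower row Meis2, Pkdcc, Gsc and Irx3 are higher in every mutant library, while E1C8Δ/Δ replicate 1 is at 0 for Rarb and E1C5Δ/Δ replicate 1 is within the Wt range for Irx5.

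Of the BMP pathway, 2 antagonist genes fell and 1 target gene rose in the mutants together, where 0.666% of all genes fell and 0.282% rose. None of 6 tested ligand genes and none of 9 tested receptor and Smad genes was called in the mutants together, with median log2 fold changes of 0.28 and -0.07, while the receptor gene Bmpr1b rose in E1C5Δ/Δ alone by 0.75 (edgeR adjusted p = 0.045). Bmp4, the main ligand of the limb mesenchyme, was at 47.3, 31.1 and 21.6 CPM in Wt, 36.9, 41.4 and 41.8 in E1C8Δ/Δ and 40.6, 18.1 and 33.4 in E1C5Δ/Δ, and Bmp2 and Bmp7 overlapped between groups in the same way. Of the antagonists 2 of 9 tested genes fell, with a median of -0.57. Smoc1, which encodes a secreted modulator of BMP signals, was at 28.4, 23.9 and 19.9 in Wt, 0, 10.97 and 6.11 in E1C8Δ/Δ and 19.5, 14.5 and 22.0 in E1C5Δ/Δ and fell by 0.92 (edgeR adjusted p = 0.022). The change was called in E1C8Δ/Δ alone and differed from that in E1C5Δ/Δ by -1.21 (adjusted p = 0.025). Fst, the gene of the activin-binding protein follistatin, was at 5.14, 3.56 and 10.5, then 0, 5.28 and 2.90, then 0.813, 1.03 and 0.105, and fell by 2.23 (edgeR adjusted p = 0.042). Smoc1 lost its call without Wt replicate 1, Wt replicate 2 or E1C8Δ/Δ replicate 3, and Fst kept its call only without Wt replicate 1, Wt replicate 2 or E1C5Δ/Δ replicate 2. Noggin transcripts (Nog) were rare in all libraries, at 3.47 CPM or less.

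Among 9 tested BMP target and feedback genes, 1 rose, where 0.282% of all genes did, and none fell, with a median of 0.25. Bambi, which encodes a pseudoreceptor that dampens BMP and TGF-beta signals, rose by 0.52 (edgeR adjusted p = 0.049) and was at 24.6, 20.0 and 22.5 CPM in Wt, 66.0, 43.1 and 41.8 in E1C8Δ/Δ and 18.7, 23.8 and 26.1 in E1C5Δ/Δ. The 3 E1C8Δ/Δ libraries lay above the rest, and the call stood only without Wt replicate 1 or E1C5Δ/Δ replicate 1. In E1C8Δ/Δ alone 3 of the 9 target genes rose, where 0.563% of all genes did. Bambi rose by 0.91, Id3 by 0.69 (edgeR adjusted p = 0.013) and Msx2 by 1.76 (adjusted p = 0.0062), while no target gene was called in E1C5Δ/Δ alone. Id3 was at 213, 185 and 198 in Wt, 401, 353 and 294 in E1C8Δ/Δ and 171, 190 and 162 in E1C5Δ/Δ, and the alleles differed by 0.84 (edgeR adjusted p = 0.0062).

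In the WNT list 1 of 17 tested genes rose, where 0.282% of all genes did, and 2 fell, where 0.666% did, with a median of -0.15. Tcf7l2 was at 518, 449 and 447 CPM in Wt, 372, 320 and 339 in E1C8Δ/Δ and 266, 328 and 318 in E1C5Δ/Δ, with no overlap, and fell by 0.56 (edgeR adjusted p = 0.014), in E1C8Δ/Δ by 0.53 and in E1C5Δ/Δ by 0.59. Fzd4, a WNT receptor gene, fell by 0.98 (edgeR adjusted p = 0.03), from 12.9, 10.5 and 11.1 to 15.8, 9.31 and 7.78 in E1C8Δ/Δ, whose unfitted replicate 1 lay above Wt, and 5.69, 1.55 and 4.41 in E1C5Δ/Δ. The R-spondin gene Rspo4, also a gene of the peripheral progenitors, rose by 1.496 (edgeR adjusted p = 0.032), from 7.56, 3.16 and 1.46 to 18.5, 11.4 and 11.6 and to 13.8, 8.79 and 17.7. Tcf7l2 lost its call only without E1C8Δ/Δ replicate 2, Fzd4 kept its call only without E1C5Δ/Δ replicate 1 or 2, and Rspo4 only without Wt replicate 1 or E1C5Δ/Δ replicate 2. No gene of the FGF list (11 tested, median -0.23) or of the TGF-beta list (8 tested, median -0.10) was called in the mutants together. Ltbp1, of the TGF-beta list, fell in E1C5Δ/Δ alone, and the FGF genes Fgfr3 and Spry1 were higher in E1C8Δ/Δ than in E1C5Δ/Δ.

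Of 10 tested Hedgehog genes 2 fell, where 0.666% of all genes did, and none rose, where 0.282% did, with a median of -0.03. Hhip, a target and inhibitor of Hedgehog signals, was at 11.04, 12.2 and 7.01 CPM in Wt, 5.28, 4.58 and 2.14 in E1C8Δ/Δ and 3.25, 5.17 and 3.36 in E1C5Δ/Δ, and fell by 1.59 (SE 0.25, edgeR adjusted p = 0.0071). Ptch1, which encodes the receptor and is itself a target, was at 58.1, 60.7 and 57.9, then 36.9, 42.2 and 36.5, then 38.2, 35.7 and 51.2, and fell by 0.51 (edgeR adjusted p = 0.045). Both were lower in every mutant library. Gli1, a further target, was lower in every mutant library too, at 11.3, 11.7 and 11.4 in Wt, 10.6, 6.94 and 8.09 in E1C8Δ/Δ and 4.06, 6.72 and 10.702 in E1C5Δ/Δ, but did not pass the test (-0.51, edgeR adjusted p = 0.27). Hhip lost its call without Wt replicate 2 or E1C5Δ/Δ replicate 3, and Ptch1 kept its call only without E1C5Δ/Δ replicate 3.

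Genes of the proximal limb rose together in the core cells. Of 13 tested genes 9 rose and none fell, where 0.282% of all genes rose, and the median log2 fold change was 1.19. The list was written with earlier results of these samples known and is no independent evidence of its direction. The rule also excluded cells with a UMI of Emx2 or Creb5, and detection of Emx2 fell when cells were thinned. Emx2 was found in 4.63% to 22.9% of the Sox9 Col2a1 cells in Wt libraries and 19.1% to 58.4% in mutant libraries. The part of cells whose Emx2 or Creb5 went undetected in the rise was not tested. Gsc, a homeobox gene (chromosome 12, 104471209 to 104473330, minus strand), was at 15.2, 15.6 and 5.55 CPM in Wt, 44.8, 40.1 and 42.6 in E1C8Δ/Δ and 46.3, 27.9 and 44.9 in E1C5Δ/Δ, and rose by 1.61 (SE 0.21, edgeR adjusted p = 0.0026). Pkdcc, the gene of a secreted kinase needed for limb cartilage (chromosome 17, 83215292 to 83225070, plus strand), was at 113, 162 and 83.9, then 322, 286 and 314, then 341, 298 and 261, and rose by 1.31 (SE 0.18, edgeR adjusted p = 0.0028). For both genes the lowest mutant library lay well above the highest Wt library.

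The Iroquois genes and the TALE homeobox gene Meis2 followed. Irx3 (chromosome 8, 91798525 to 91802067, minus strand) was at 21.7, 18.7 and 9.06 CPM in Wt, 47.5, 53.9 and 40.8 in E1C8Δ/Δ and 24.4, 41.9 and 69.7 in E1C5Δ/Δ, and rose by 1.47 (SE 0.24, edgeR adjusted p = 0.011). Irx5 was at 9.75, 8.56 and 0.585, then 21.1, 27.5 and 19.1, then 8.94, 18.6 and 25.6, and rose by 1.53 (SE 0.34, edgeR adjusted p = 0.045), with E1C5Δ/Δ replicate 1 inside the Wt range before normalization factors are applied. Meis2 was at 187, 150 and 70.7, then 266, 240 and 262, then 299, 241 and 390, and rose by 1.03 (SE 0.22, edgeR adjusted p = 0.039). Wt replicate 3 was the lowest Wt library for each of the 3 genes, while for Hoxd11, a gene of the forearm, it was the highest at 308, with the other Wt libraries at 147 and 173.

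The retinoic acid receptor gene Rarb rose by 1.74 (edgeR adjusted p = 0.021), the glutamate receptor gene Gria2 by 1.19 (adjusted p = 0.013), Hoxb7 by 1.13 (adjusted p = 0.037) and Hoxc4 by 1.01 (adjusted p = 0.018). These were genes of low level, with Wt means of 2.08, 5.17, 3.66 and 5.81 CPM. Hoxb8 did not pass the test at 1.59 (edgeR adjusted p = 0.055), nor did Meis1 at 0.57 and Ntn1 at -0.15. Gsc, Pkdcc and Irx3 were called whichever library was left out, and Irx5, Meis2, Rarb, Gria2, Hoxb7 and Hoxc4 were each lost without Wt replicate 2 and without E1C8Δ/Δ replicate 2. Of the 8 fits that left out a library, Hoxb7 was lost in 7, Meis2 in 6, Irx5 in 5, Rarb and Hoxc4 in 3 and Gria2 in 2. With sex as a covariate 1 of the 13 genes was called, with a median of 1.23, and in male embryos alone none was, with a median of 1.26. Without Wt replicate 2 and without E1C8Δ/Δ replicate 2 there were 3 calls each, without E1C5Δ/Δ replicate 3 there were 4 and without Wt replicate 3 there were 7. When Sox9 Col2a1 cells were fitted without the clause on position genes, 7 were called and the median was 0.82.

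In the list of zeugopod and distal genes 1 of 13 tested members fell, where 0.666% of all genes did, and none rose, where 0.282% did, with a median of -0.32. Cyp26b1, which encodes an enzyme that degrades retinoic acid, was at 77.1, 69.8 and 74.2 CPM in Wt, 42.2, 53.1 and 41.8 in E1C8Δ/Δ and 37.4, 47.6 and 53.3 in E1C5Δ/Δ, with no overlap, and fell by 0.62 (edgeR adjusted p = 0.016), a call lost without Wt replicate 2 or E1C8Δ/Δ replicate 3. Hoxd11 was at 209 ± 86.4 in Wt, 121 ± 16.5 in E1C8Δ/Δ and 101 ± 38.5 in E1C5Δ/Δ (SD, n = 3, 2 and 3) and was not called (-0.88, edgeR adjusted p = 0.084). None of 7 tested anterior and posterior genes, 9 tested joint, tendon, bone and hypertrophic genes or 15 tested cell cycle genes was called in the mutants together, with medians of 0.13, -0.13 and -0.08. In E1C5Δ/Δ alone Spp1 fell, and Mki67 was lower in E1C8Δ/Δ than in E1C5Δ/Δ. Of the 6 peripheral progenitor genes Rspo4 was the one that rose, with a median of 0.44.

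Nrp2 and Zeb2 were the genes outside the lists whose fall was called in each of 18 alternative fits. Nrp2 (chromosome 1, 62703285 to 62818695, plus strand), a receptor gene for semaphorins and VEGF, was at 83.4, 88.4 and 84.8 CPM in Wt, 31.7, 54.7 and 38.3 in E1C8Δ/Δ and 30.9, 22.2 and 21.8 in E1C5Δ/Δ. It fell by 1.36 (SE 0.13, edgeR adjusted p = 0.00019), by 0.89 in E1C8Δ/Δ and by 1.83 in E1C5Δ/Δ, and the alleles differed by 0.94 (adjusted p = 0.023). Zeb2 (chromosome 2, 44983632 to 45117395, minus strand), a zinc-finger and homeobox gene whose product binds Smads, was at 26.2, 23.4 and 23.1 in Wt, 5.28, 7.08 and 5.04 in E1C8Δ/Δ and 9.75, 14.5 and 13.4 in E1C5Δ/Δ. It fell by 1.45 (SE 0.15, edgeR adjusted p = 0.00019), by 2.01 in E1C8Δ/Δ and by 0.89 in E1C5Δ/Δ, so that the order of the alleles was the reverse of that for Nrp2, with a difference of -1.13 (adjusted p = 0.023).

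Other genes named for the size of their change were at low levels. Among called genes whose fitted mutant and Wt libraries did not overlap after normalisation, lower by the most were Eif3j2 (-3.07), Lbp (-2.75), Hic1 (-2.72), Vax2 (-2.65), 4930412C18Rik (-1.93), Hs3st6 (-1.86) and Spag17 (-1.78), beside Osr2. Eif3j2 shares most of its sequence with Eif3j1, so that the assignment of its UMIs is uncertain. Hic1, a transcriptional repressor gene, was at 4.16, 4.59 and 4.97 CPM in Wt, 0, 1.25 and 0.611 in E1C8Δ/Δ and 0.813, 0.517 and 0.420 in E1C5Δ/Δ, and Lbp, which encodes a lipopolysaccharide-binding protein, at 10.6, 12.5 and 20.5, then 7.91, 2.64 and 2.14, then 5.69, 2.59 and 0.839. Higher by the most among such genes, beside Rarb, Gsc, Irx5, Rspo4 and Irx3, were Crnde (2.44), Gm10000 (1.86) and Rassf4 (1.63). Crnde (chromosome 8, 92326033 to 92356120, minus strand) lies next to Irx5 (92357625 to 92376286, plus strand). Gm10000 (chromosome 12, 104473331 to 104477759, plus strand) begins at the base adjoining the start of Gsc, which lies on the minus strand. The calls of Eif3j2, Lbp and Hic1 stood whichever library was left out, whereas that of Vax2 was lost in 3 of the 4 such fits in which it was tested and those of 4930412C18Rik, Hs3st6, Spag17, Crnde, Gm10000 and Rassf4 were lost in 5 to 8 of the 8 such fits.

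The alleles were compared with each other to see where they differ. Between E1C8Δ/Δ and E1C5Δ/Δ 212 of 11718 genes (1.81%) were called by edgeR, 110 higher in E1C8Δ/Δ (0.939%) and 102 lower (0.87%). Of the list genes 15 were higher in E1C8Δ/Δ, among them Cnmd, Col9a2, Col27a1, Wwp2, Fgf9, Foxc1, Sema3d, Fst, Id3, Msx2 and Bambi, and 4 were lower, Sox8, Grem1, Smoc1 and Mki67. Col9a2 was at 4.69, 8.90 and 19.3 CPM in Wt, 7.91, 13.7 and 13.3 in E1C8Δ/Δ and 0.813, 1.03 and 1.57 in E1C5Δ/Δ, a difference of 3.25 between the alleles (edgeR adjusted p = 0.013). No proximal gene was called between the alleles, whose own changes were alike in size for Gsc (1.61 and 1.61), Pkdcc (1.28 and 1.33) and Irx3 (1.40 and 1.53). E1C8Δ/Δ entered with 2 libraries, 11 genes were called without its replicate 2 and 50 without its replicate 3. In each of these fits the remaining E1C8Δ/Δ library was assumed to vary like the libraries of the other genotypes. Without E1C5Δ/Δ replicate 2 there were 79 calls and without E1C5Δ/Δ replicate 3 there were 73. The E1C8Δ/Δ core cells were the shallowest of the genotypes.

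Whether these changes were particular to the core cells was tested as the interaction of genotype with cell group, with the core cells and the other mesenchymal cells of a library as 2 sums and the library as a block. Of 13681 genes 21 (0.153%) had an edgeR adjusted p under 0.05, 18 with a change further up in core cells (0.132%) and 3 with one further down (0.0219%). At an unadjusted p under 0.05 there were 828. In the proximal list 9 of 13 genes were among the 18, and all 13 had an interaction above 0, with a median of 0.89. The count was 0 of 13 by DESeq2, with embryo sex by cell group and without Wt replicate 2, 3 without E1C5Δ/Δ replicate 1, 4 without E1C5Δ/Δ replicate 2 or replicate 3, and 6 without E1C8Δ/Δ replicate 3. Beside mesenchymal cells with under 5 Sox9 UMIs per 10000 it was 5, and the 13 values were above 0 in each of these fits. The clauses on Emx2 and Creb5 applied to the core cells alone, and their part in these interactions was not tested.

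Gsc changed by 1.61 in core cells and by 0.16 in the other mesenchyme, where it was at 35.3, 53.9 and 41.8 CPM in Wt, 75.6, 65.0 and 63.1 in E1C8Δ/Δ and 42.7, 37.8 and 27.4 in E1C5Δ/Δ, and the interaction was 1.49 (SE 0.25, edgeR adjusted p = 0.0099). Irx3 changed by 1.47 and 0.26, with an interaction of 1.17 (adjusted p = 0.0021), and in the other mesenchyme it was at 45.3, 61.3 and 54.6, then 69.5, 71.99 and 54.3, then 60.3, 55.2 and 75.1. Core cells of the mutants thus came closer to the level of the surrounding mesenchyme for these genes.

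Zeb2 and Nrp2 had interactions of -1.02 and -0.99 (edgeR adjusted p = 0.0028 and 0.036), with changes in the other mesenchyme of -0.39 and -0.29 that were not called. Osr2, by contrast, fell in both cell groups, by 1.84 in core cells and by 1.54 in the other mesenchyme, where it was at 36.0, 31.8 and 31.4 CPM in Wt, 6.07, 10.82 and 8.66 in E1C8Δ/Δ and 16.8, 12.6 and 8.65 in E1C5Δ/Δ, with an interaction of -0.22 (edgeR adjusted p = 0.74). Jag1, a Notch ligand gene, differed the other way round: it was not called in core cells (0.16) and fell by 1.19 in the other mesenchyme (edgeR adjusted p = 0.0069), with an interaction of 1.29 (adjusted p = 0.03). Jag1 was low in core cells, at a median of 2.88 CPM over 8 libraries. The rule also excluded cells with a Hoxa13 UMI, and the study reports fewer cells with both Hoxa13 and Jag1 in the mutants. The part of this clause was not tested. The interaction calls were 0 without Wt replicate 2 and 51 without Wt replicate 1, 7 without E1C5Δ/Δ replicate 1, 12 without E1C5Δ/Δ replicate 2, 10 without E1C5Δ/Δ replicate 3 and 32 without E1C8Δ/Δ replicate 2. They were 1 by DESeq2 and, with a term for embryo sex by cell group, 0, with 446 and 853 genes in that order at an unadjusted p under 0.05.

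**Figure D5:**
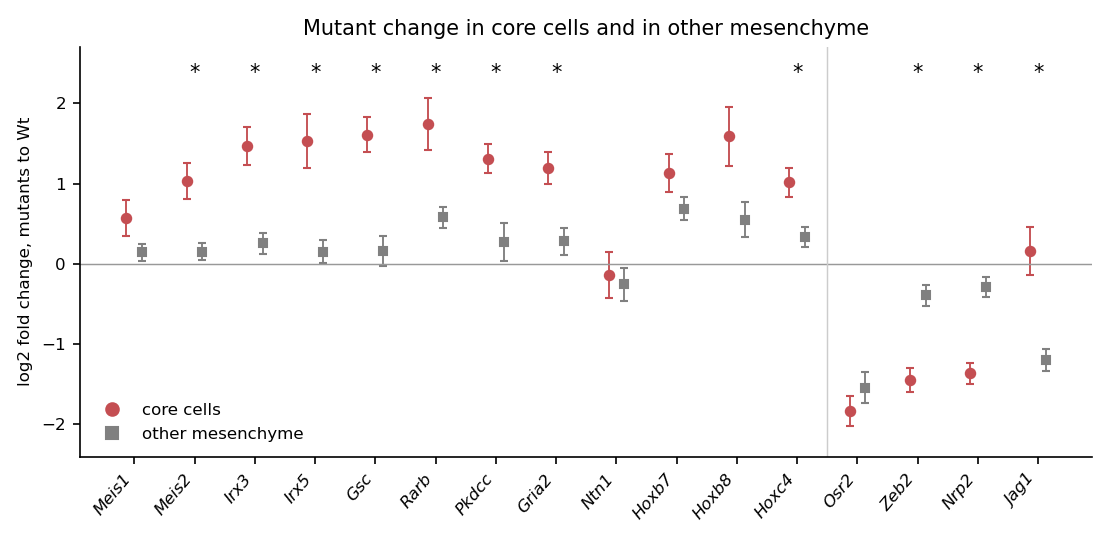
Log2 fold change of the mutants against Wt, with 1 SE, in core cells (red circles) and in the other mesenchymal cells (grey squares), for 12 of the 13 proximal genes and for Osr2, Zeb2, Nrp2 and Jag1. Asterisks mark genes whose changes differed between the cell groups by the interaction test, among them Gsc at 1.61 against 0.16 and Zeb2 at -1.45 against -0.39.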

How the data were processed

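Single-cell RNA-seq counts were analysed for 9 forelimb bud libraries, 3 each of Wt, E1C8Δ/Δ and E1C5Δ/Δ, which the study describes as independent biological replicates. The deposited counts are UMIs per gene and barcode, made by the authors with Cell Ranger 6.0.1 on mm10, and Seurat 4.3.0.1 is named in the submitters' processing notes. The matrices hold more barcodes than the study's filters keep, so the filters of the rule were applied here. UMIs are molecules captured, not normalised, and depth differs between libraries, which affects rules with a fixed number of UMIs.

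UMIs of core cells were summed per library, with at least 20 core cells, and tested with edgeR 4.0.16 in R 4.3.3 (filterByExpr, TMM, glmQLFit, glmQLFTest, Benjamini-Hochberg, threshold 0.05) for autosomal genes. This tests libraries, whereas the study tested cells. The interaction fit had the library as a block. Shares were compared by two-sided exact permutation tests with Benjamini-Hochberg adjustment over 9 tests. Ratios used a pseudocount of 1 CPM (a UMI per 1000000 UMIs). Doublets were called by similarity to simulated doublets at 0.8% per 1000 barcodes. Erythroid cells, used as a background for detection, had at least 10% globin UMIs. Of 32289 features, 32158 were placed by GENCODE M21 (GRCm38), and 1809 on X or Y and 13 mitochondrial ones were left out. On simulated data with 200 genes changed by a log2 fold change of 1, made for the comparison of mutants with Wt, 84.5% were recovered with 12 false calls among 11718 genes. Replicates of a genotype differed beyond sampling noise, with chi-square per degree of freedom of 2.61 to 17.4. Python 3.11.15 with numpy 2.4.6, scipy 1.17.1 and pandas 2.3.3 was used.

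Named genes were the genes of the rule and its markers, Grem1, genes of 19 lists that were called or most abundant, the 8 genes with the largest change in each direction among those called with no overlap, the 10 with the largest ratio in each direction, and genes called for the interaction. The values of 1 gene that is withheld are not reported here. The members and lists were chosen with earlier results of these data known. Alternatives were DESeq2 1.42.0, its size factors, no filter on low counts, the replicate number as a block, embryo sex as a covariate, doublet calls or mixed cells removed, at least 10 core cells, no clause on position genes, thinned cells and each library left out in turn. Male embryos alone and embryo sex by cell group were added after seeing the data.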

Additional observations from a re-analysis of the deposited data

Results flagged for a closer look

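For 21 genes the change of the mutants against Wt differed between core cells and the other mesenchymal cells of the same libraries, by the interaction term of edgeR's quasi-likelihood fit. The values below are the change in core cells less that in the other mesenchyme, on the log2 scale. Among proximal genes the difference was 1.49 for Gsc, 1.31 for Irx5, 1.20 for Rarb, 1.17 for Irx3, 0.95 for Pkdcc, 0.89 for Meis2, 0.85 for Gria2 and 0.70 for Hoxc4. The further HOX genes Hoxb3 and Hoxa7 had differences of 1.10 and 0.39.

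Among genes of secreted and surface proteins it was 1.29 for the Notch ligand gene Jag1, 0.91 for the R-spondin gene Rspo4, 0.72 for the adhesion gene Ntm, 0.62 for Igfbp2, which encodes an IGF-binding protein, 0.60 for the heparin-binding growth factor gene Ptn, 0.53 for the protease inhibitor gene Serpine2 and 0.43 for Igdcc3. The difference was below 0 for Zeb2 (-1.02), Nrp2 (-0.99) and 2410006H16Rik (-0.38). Each of the 21 kept its sign with a term for embryo sex by cell group, where 0 genes were called, and without Wt replicate 2 the count was also 0. The causes were not tested.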

How the results depend on the processing

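The 9 differences in share kept their direction under all 127 alternative values; none passed the threshold, which the 6 tests of a single allele could not reach. For mutants against Wt, E1C8Δ/Δ against Wt, E1C5Δ/Δ against Wt and E1C8Δ/Δ against E1C5Δ/Δ, the 111, 149, 127 and 212 called genes became 415, 570, 415 and 682 with no filter on low counts, 5, 38, 7 and 127 with embryo sex as a covariate, and 6, 22, 3 and 5 in male embryos alone, where each mutant genotype had 1 library that was assumed to vary like the Wt libraries. With at least 10 core cells per library 235 genes were called for E1C8Δ/Δ, and with no clause on position genes 193 for E1C5Δ/Δ and 319 between the alleles. Leaving out 1 library gave 29 to 144, 22 to 208, 12 to 161 and 11 to 304 calls, and with 1 E1C8Δ/Δ library left the spread came from the other genotypes. For the interaction, 21 calls became 1 by DESeq2, 130 with no filter and 0 with embryo sex by cell group, and 0 to 51 with 1 library left out. The causes were not tested, beyond the smaller number of libraries when some are left out. With the replicate number as a block the counts were 39, 58, 41 and 46. Same-numbered libraries did not deviate together (correlations of -0.279 to 0.175), so the numbers were not taken as pairing, and with the replicate block the share of core cells differed by -6.39 points with an exact permutation p of 0.037. Of 713 values of the 40 called named genes under alternatives, 458 stayed called, 255 no longer passed and 0 reversed, and of 252 interaction values 121 stayed called and 131 no longer passed. Low depth limits genes of a few CPM, and E1C5Δ/Δ replicate 1 rests on 29 core cells.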
